A study of Drosophila melanogaster with 15 samples.

Results

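Pdf encodes Pigment-dispersing factor, the neuropeptide by which the ventral lateral neurons (LNvs) of the Drosophila brain signal to other clock neurons, and Pdfr encodes its receptor. Every probe set to which the platform annotation gave either symbol alone was taken, which was 1 for each, for 2 of the 11981 genes with such a probe set. They were measured on 15 Affymetrix arrays of sorted neurons from brains of third-instar larvae, 3 arrays for each of 5 groups, which the titles call biological replicates. The cyc0 LNvs (genotype yw, Pdf-RFP, cyc0) and the per0 LNvs (yw, per0; Pdf-RFP) were taken at zeitgeber time (ZT) 15. Wild-type LNvs (yw, Pdf-Gal4; UAS-GFP) were taken at ZT15 and at ZT3, and neurons labelled by elav-Gal4 and UAS-GFP, a pan-neuronal driver, were taken at ZT15. In a cycle of 12 h light and 12 h dark these times lie 3 h after lights-on (ZT3) and 3 h after lights-off (ZT15). The per0 and cyc0 alleles remove the function of period, a repressor of the clock, and of cycle, a subunit of its transcriptional activator.

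The Pdf promoter drove the fluorescent reporter in the 4 LNv groups, so the level of Pdf in LNvs over elav neurons is a property of the sort and is described without a test. Both mutants carried Pdf-RFP and both wild-type groups Pdf-Gal4 with UAS-GFP, so the effects of reporter and clock genotype cannot be told apart in those comparisons. For every gene, the 4 comparisons with elav neurons use the same 3 elav arrays at ZT15 and are not independent of each other. Wild-type LNvs at ZT3 differ from these arrays in time as well as cell type. The mutants differ from them in clock genotype and reporter as well, and these effects cannot be told apart. A larval brain holds 8 labelled LNvs, and about 1000 cells were sorted for a sample, per the labels. The protocol label names RFP for every array although the genotypes carry GFP in 3 of the groups, and the elav arrays have LNvs as their tissue label. Their title, genotype and Pdf level set them apart from the LNv arrays.

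As background, Pdf is cut from a larger precursor, amidated at its end and released from dense-core vesicles. Pdfr is a G protein-coupled receptor of the secretin family that acts through Gs, adenylyl cyclase and cyclic AMP. In adult flies the loss of either gene weakens behavioural rhythms in constant darkness, and clock input to Pdf is known from factors including Clk, vri and Hr51.

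Array values are log2 values after GCRMA, a method that subtracts a modelled background. Transcripts below background gather near 2.3, and between 3520 and 5436 probe sets reached a log2 value of 4 on an array. The clock gene tim, a target of the clock activator, averaged 2.98 ± 0.20 in cyc0, 10.89 ± 0.16 in per0, 10.89 ± 0.18 in wild type at ZT15 and 2.97 ± 0.14 in wild type at ZT3 (SD, n = 3 each). Of the 8 LNv markers with a probe set of their own, tim, per and sNPF lay below 4 on all 3 cyc0 arrays, and these 3 and Hr51 on all 3 wild-type ZT3 arrays. The 5 neuron markers had summed log2 levels of 27.3 to 39.4 over the 12 LNv arrays and 24.8 to 29.1 in elav neurons. Among them elav averaged 7.74 ± 0.49 in cyc0, 5.73 ± 0.70 in per0, 5.58 ± 0.72 in wild type at ZT15, 7.76 ± 0.81 in wild type at ZT3 and 8.75 ± 0.46 in elav neurons, while futsch was higher than in elav neurons in all 4 LNv groups and averaged 9.77 ± 0.36 in wild type at ZT15 and 4.68 ± 1.12 in elav neurons (SD, n = 3 each). The 5 neuroblast markers had summed log2 levels of 12.5 to 20.1 over the 12 LNv arrays and 25.0 to 33.3 in elav neurons. The 4 glial markers summed to 14.6 to 17.9 in cyc0, 13.89 to 15.02 in per0, 16.7 to 20.7 in wild-type LNvs at ZT15, 20.0 to 25.7 at ZT3 and 17.3 to 22.2 in elav neurons. The defining marker repo was below 4 on all per0 and all wild-type ZT15 arrays and at 4 or above on 2 of 3 wild-type ZT3 arrays. In cyc0 and in elav neurons no glial marker, repo included, was below 4 on all arrays of the group. The per0 sums lay below those of every wild-type array. Among the 4, Gs2, a glutamine synthetase, was lower than in wild type at ZT15 by 2.33 in cyc0 and 3.0 in per0 (log2 differences -2.33 and -3.0, limma adjusted p = 0.0448 and 0.0225), and both calls were lost without wild-type ZT15 replicate 2 (-1.77 and -2.44, limma adjusted p = 0.192 and 0.117) and without several other arrays. Against elav neurons the glial markers went both ways. Gs2 was called higher in wild type at ZT15 and at ZT3, and nrv2 was called lower in wild type at ZT15 and in per0. The median glial difference from wild type at ZT15 was -0.10 in cyc0 and -0.53 in per0, against 0.17 and 0.24 over all probe sets tested. futsch, Gs2 and nrv2 were named after their values were seen. The part of these lists in the differences against elav neurons and between mutants and wild type was not tested.

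Pdf was among the brightest probe sets in every LNv sample, and its means in the 4 LNv groups lay between 12.50 and 13.02. Its log2 values were 12.93, 12.80 and 12.37 on the cyc0 arrays and 13.07, 12.93 and 13.05 on the per0 arrays. Wild-type LNvs had 12.61, 12.41 and 12.48 at ZT15 and 12.57, 12.77 and 12.66 at ZT3. Elav neurons had 3.06, 3.57 and 4.49. The 12 LNv arrays thus lay between 12.37 and 13.07, and the highest elav array lay far below the lowest of them. In elav neurons 1 of 3 arrays reached 4.

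The Pdf means were 12.70 ± 0.29 in cyc0, 13.02 ± 0.08 in per0, 12.50 ± 0.10 in wild-type ZT15, 12.67 ± 0.10 in wild-type ZT3 and 3.70 ± 0.73 in elav arrays (SD, n = 3 each). By level, per0 was highest, before cyc0, wild-type ZT3, wild-type ZT15 and elav. Neighbours in this order overlapped in their arrays at every step among the LNv groups, and the steps measured 0.31, 0.04 and 0.17. Between per0 and cyc0 the overlap was narrow, at 12.928 in per0 replicate 2 and 12.933 in cyc0 replicate 1. The step between wild-type LNvs at ZT15 and elav neurons was the 1 step without overlap.

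**Figure D1:**
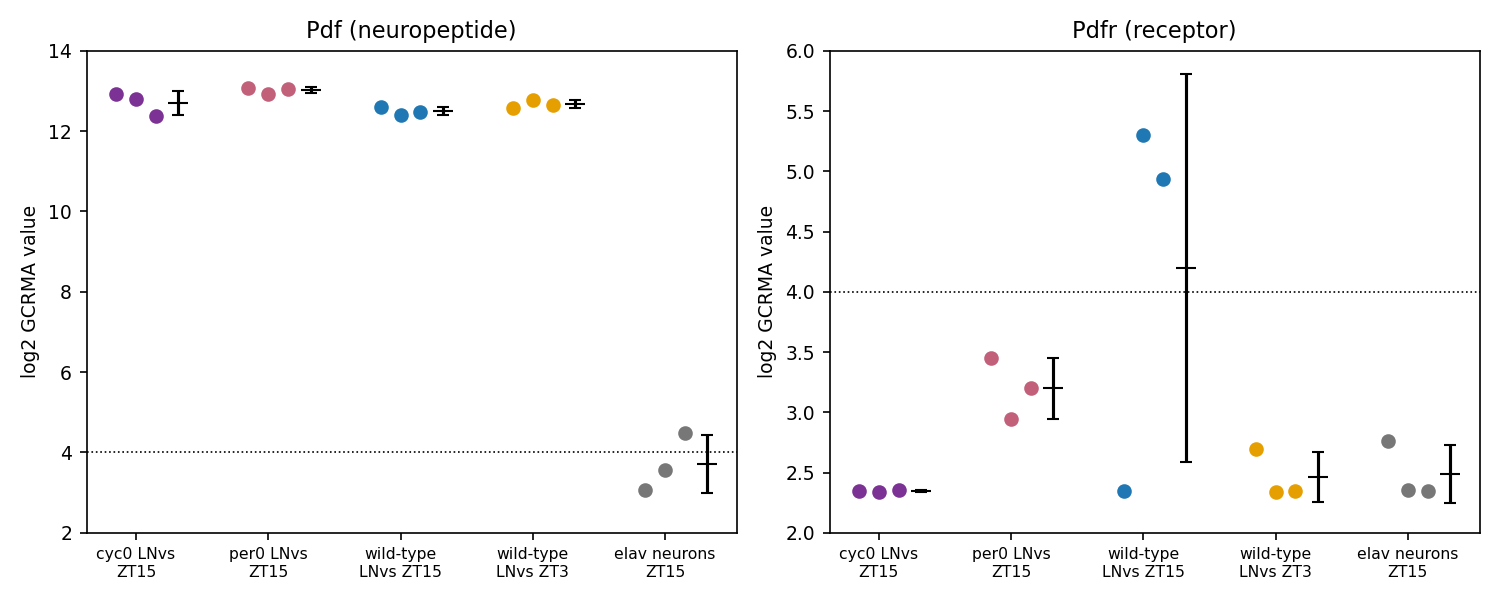
Log2 values of Pdf and Pdfr on each of the 15 arrays, by group on the horizontal axis, with black bars for the mean ± SD of 3 arrays and a dotted line at a log2 value of 4. Pdf lies between 12.37 and 13.07 on all 12 LNv arrays, while Pdfr passes the line on 2 arrays, both of wild-type LNvs at ZT15.

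As a description, Pdf was higher than in elav neurons by 9.0 in cyc0 LNvs, 9.31 in per0 LNvs, 8.80 in wild-type LNvs at ZT15 and 8.96 in wild-type LNvs at ZT3 on the log2 scale (SE 0.48). With values below 4 set to 4, as for 2 of the 3 elav arrays, these are at least 372-fold, 463-fold, 323-fold and 363-fold. Each is the ratio of a group to the same 3 elav arrays, so the 4 values are not independent of each other. Over all 5829 probe sets tested, 23.3% of cyc0, 30.3% of per0, 30.6% of wild-type ZT15 and 30.3% of wild-type ZT3 comparisons with elav neurons were without overlap between the arrays. In RNA of sorted pools, fewer cells of a type and less RNA per cell cannot be told apart, so the elav value does not say how many elav neurons carried Pdf.

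Pdf lay at the upper end of the scale. It was the highest of all probe sets other than controls on 5 arrays, which were 2 cyc0 arrays and all 3 per0 arrays. On the remaining 7 LNv arrays it ranked between 2 and 18 from the top. Its largest distance below the highest value of an array was 0.90, on a wild-type ZT15 array.

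**Figure D2:**
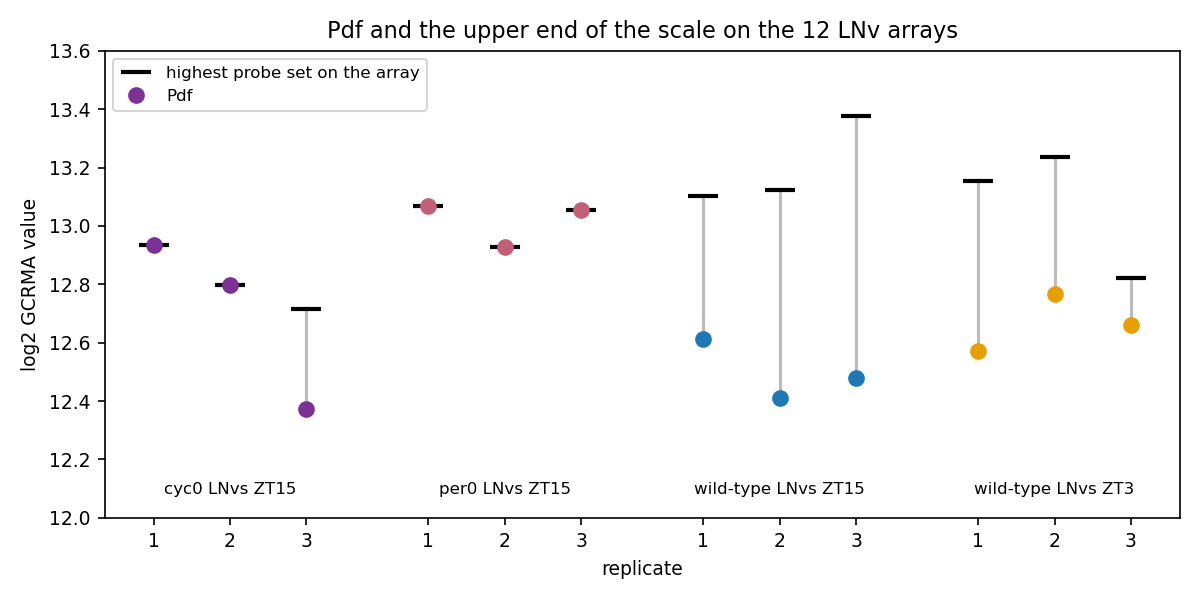
Pdf (dot) and the highest probe set other than controls (bar) on each of the 12 LNv arrays, in log2 units. The dot meets the bar on all 3 per0 arrays and on 2 cyc0 arrays, and the largest distance, 0.90, is on a wild-type ZT15 array.

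Pdf also varied little between arrays of a group. Its SD within groups, pooled over the 4 LNv groups, was 0.17, against a median of 0.80 over all probe sets tested. That median covers probe sets of all levels that passed the filter, and equally bright ones were not compared as a set. For tim, where it averaged 10.89, the SD was 0.16 in per0 and 0.18 in wild type at ZT15. In elav neurons the SD of Pdf was 0.73, and the 5 groups share 1 estimate of the spread in the limma fit. The SE of a Pdf difference was 0.48 in that fit and 0.28 in a fit to all probe sets without the filter, in which no Pdf difference among LNv groups passed either. How far a difference can be read near the top of the scale was not tested.

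The time of day was compared within wild-type LNvs, which shared a genotype and a reporter. Pdf was lower by 0.17 at ZT15 than at ZT3 and did not pass the test (log2 difference -0.17, 95% interval -1.17 to 0.84, limma adjusted p = 0.997). The arrays of the 2 times overlapped. The interval runs over folds of 0.445 to 1.79. Of all probe sets tested, 0.789% passed in this comparison.

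In per0 LNvs all 3 Pdf values (12.93 to 13.07) lay above all 3 wild-type values at ZT15 (12.41 to 12.61). They also lay above the 3 wild-type values at ZT3. The difference at ZT15 was 0.52 (fold 1.43, 95% interval of the log2 difference -0.49 to 1.52) and did not pass (limma adjusted p = 0.62). An exact two-sided permutation test of the 6 arrays gave p = 0.1, the smallest that 3 against 3 arrays allow. Of all probe sets tested, 16.2% lay higher in per0 without overlap and 1.18% passed the limma test in either direction. The median of all probe sets tested was itself 0.24 higher in per0. After quantile normalization the Pdf difference was 0.82 (limma adjusted p = 0.332), and after centring each array on the median of its tested probe sets, a setting added after the data were seen, it was 0.34.

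In cyc0 LNvs the Pdf values (12.37 to 12.93) overlapped those of wild-type LNvs at ZT15. The difference was 0.20 (95% interval -0.80 to 1.20, folds of 0.574 to 2.3, limma adjusted p = 0.854), in a comparison in which 2.9% of all probe sets passed. This value depended on the scaling more than the others, at 0.75 after quantile normalization (limma adjusted p = 0.334) and 0.004 after centring on the tested probe sets, while the median of all probe sets tested was 0.17. Without cyc0 replicate 3 it was 0.37. Under none of these settings did it pass.

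The mutants shared the Pdf-RFP reporter, so the reporter was the same on both sides of their difference. Pdf was 0.31 lower in cyc0 than in per0 (log2 difference -0.31, 95% interval -1.32 to 0.69, limma adjusted p = 0.907; 0.789% of all probe sets passed). After quantile normalization the difference was -0.07. A moderated F test over the 4 LNv groups together did not pass for Pdf either (limma adjusted p = 0.851), where 4.29% of all probe sets did. On the same 12 arrays the group means of tim lay between 2.97 and 10.89.

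**Figure D3:**
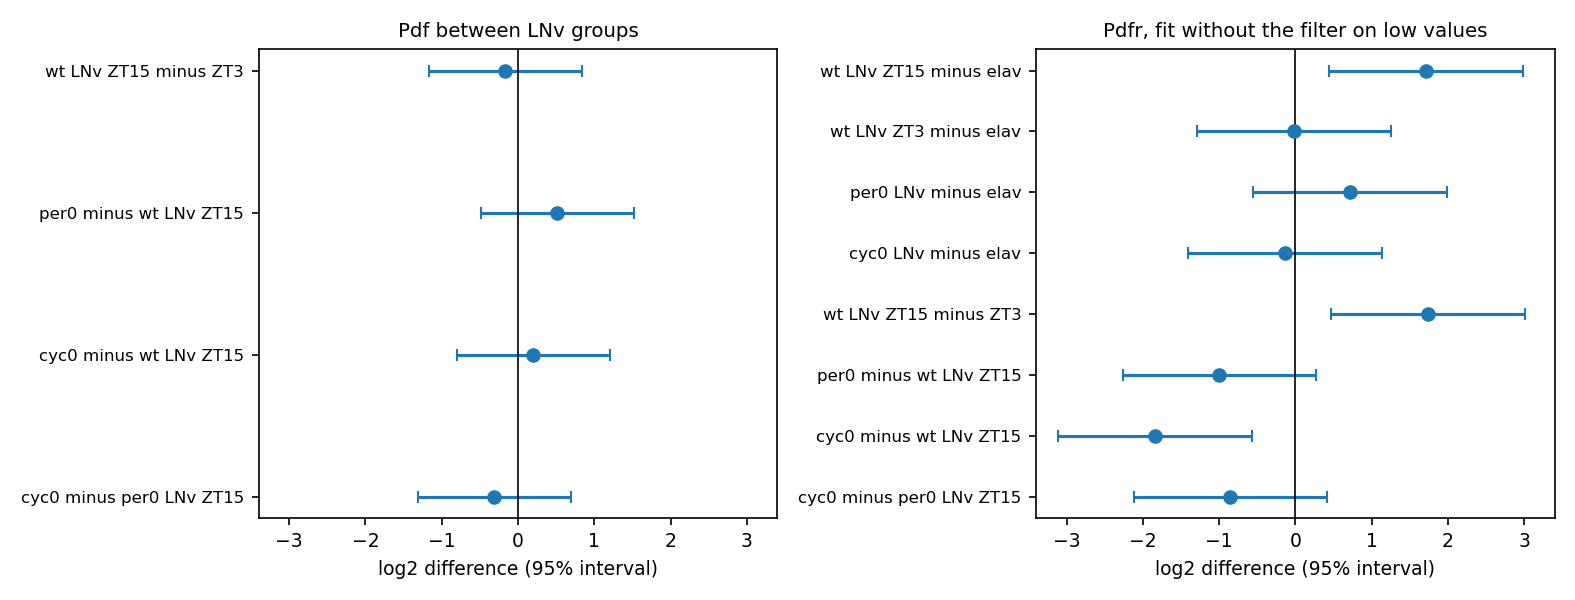
Log2 differences of Pdf (4 comparisons among LNv groups) and Pdfr (8 comparisons, fitted without the filter on low values) with 95% intervals from limma and a line at 0. All 4 Pdf intervals cross 0 and none reaches beyond 1.52, while 3 Pdfr intervals, each with wild-type LNvs at ZT15 on 1 side, lie off 0 before adjustment.

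Pdfr was near the lower end of the scale in all groups other than wild-type LNvs at ZT15. Its log2 values were 2.35, 2.34 and 2.35 on the cyc0 arrays and 3.45, 2.94 and 3.20 on the per0 arrays. Wild-type LNvs had 2.35, 5.30 and 4.94 at ZT15 and 2.70, 2.34 and 2.34 at ZT3. Elav neurons had 2.76, 2.35 and 2.34. A value of 4 was reached on 2 of 15 arrays, so Pdfr fell short of the 3 arrays required and was not among the probe sets tested. On 8 arrays it lay within 0.1 of the lowest value of the array, namely 3 cyc0, 1 wild-type ZT15, 2 wild-type ZT3 and 2 elav arrays. On such arrays the values have no usable order.

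The Pdfr means were 2.35 ± 0.01 in cyc0, 3.20 ± 0.25 in per0, 4.19 ± 1.61 in wild-type ZT15, 2.46 ± 0.20 in wild-type ZT3 and 2.49 ± 0.24 in elav arrays (SD, n = 3 each). By level, wild-type ZT15 was highest, before per0, and the other 3 groups, with 7 of their 9 arrays at the floor, have no usable order. Wild-type ZT15 and per0 were 1.0 apart and overlapped, with an SD of 1.61 in the wild-type group. Per0 and elav were 0.71 apart, without overlap of arrays.

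For differences of Pdfr the model was fitted to all 18769 probe sets, without the filter, and there no comparison passed. Wild-type LNvs at ZT15 stood 1.71 above elav neurons (95% interval 0.44 to 2.98, limma adjusted p = 0.207; 2.42% of all probe sets passed). They stood 1.73 above wild-type LNvs at ZT3 (0.46 to 3.0, limma adjusted p = 0.668; 0.176% passed). Pdfr was 1.85 lower in cyc0 than in wild type at ZT15 (log2 difference -1.85, interval -3.12 to -0.58, limma adjusted p = 0.271; 0.607% passed). In per0 it differed from wild type at ZT15 by -1.0 (interval -2.27 to 0.28, limma adjusted p = 0.802; 0.213% passed). The F test over the 4 LNv groups gave a limma adjusted p = 0.461, where 0.719% of all probe sets passed.

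A single array decided these 4 differences of Pdfr. Wild-type ZT15 replicate 1 had 2.35, at the lower end of the scale, and the other 2 arrays of its group 5.30 and 4.94. Without it, wild-type LNvs at ZT15 stood 2.63 above elav neurons and 2.66 above wild-type LNvs at ZT3 (limma adjusted p = 0.000246 and 0.000282). The mutants then differed from wild type by -2.77 in cyc0 and -1.92 in per0 (limma adjusted p = 0.000231 and 0.00186). Replicate 1 stands out by its Pdfr value itself, and 2 arrays remained in its group. Most arrays of cyc0, wild type at ZT3 and elav neurons lay at the floor, where the spread is small, so these p-values are a description. Leaving out replicate 2 gave 1.15, 1.18, -1.29 and -0.44 for the same 4 differences, and leaving out replicate 3 gave 1.34, 1.36, -1.48 and -0.62, of which none passed. On replicate 1, 4194 probe sets reached 4 and Pdf had 12.61. The cause of its low Pdfr value was not tested.

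The 4 other Pdfr differences were smaller. Per0 LNvs stood 0.71 above elav neurons without overlap of arrays (exact permutation p = 0.1, the smallest possible; limma adjusted p = 0.723), in a comparison where 30.3% of the probe sets tested had no overlap. Pdfr was 0.85 lower in cyc0 than in per0, also without overlap (log2 difference -0.85, exact permutation p = 0.1, limma adjusted p = 1, where 0.128% of all probe sets passed; 14.4% of probe sets tested had no overlap). Cyc0 and wild-type ZT3 LNvs differed from elav neurons by -0.14 and -0.02, in comparisons where 1.29% and 2.02% of all probe sets passed, against 1.85% for per0. With all 3 per0 values between 2.94 and 3.45, above the floor but below 4, the per0 arrays were the only group with no array within 0.1 of its lowest value.

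Among genes that process, store and release peptides, 8 of the 12 listed were tested, and several stood higher in LNvs than in elav neurons. The number higher was 5 in cyc0, 4 in per0, 3 in wild type at ZT15 and 3 in wild type at ZT3, and none was lower. Over the alternatives these counts ran between 2 and 5, 2 and 5, 2 and 3, and 2 and 4. The cyc0 count was 3 without cyc0 replicate 1 or 2 or elav replicate 1, and the per0 count was 2 without per0 replicate 1. The share of all probe sets called higher in these comparisons was 3.41%, 6.91%, 7.26% and 7.07%, and in either direction 5.61%, 10.2%, 12.5% and 11.2%. The median differences of the list were 2.37, 2.24, 0.91 and 1.48, against 0.28, 0.32, 0.11 and 0.16 over all probe sets tested. The list was chosen with results of these arrays known and its counts are a description.

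Pal2, a lyase of the last step of peptide amidation, had 8.05 to 11.37 in cyc0, 8.72 to 9.87 in per0, 8.86 to 10.59 in wild-type LNvs at ZT15, 8.76 to 10.75 at ZT3, and 4.53 to 6.71 in elav neurons. It was higher by 4.22, 3.71, 4.33 and 4.45 in these LNv groups (limma adjusted p = 0.00459, 0.00726, 0.00223 and 0.00203). 7B2, a helper protein of the prohormone convertase, was higher by 3.17, 2.90, 2.69 and 3.12, and no LNv array overlapped an elav array. Phm, which carries out the first step of amidation, was higher by 2.67 in cyc0, 2.62 in per0 and 2.04 in wild type at ZT15 (limma adjusted p = 0.0121, 0.01 and 0.0347). Its second tested probe set passed in the same 3 comparisons, and neither passed in wild type at ZT3. Without elav replicate 1 the 3 Phm calls were lost, at 2.15, 2.09 and 1.52 (limma adjusted p = 0.0742, 0.0601 and 0.154), and also without cyc0 replicates 1 or 2, per0 replicate 1 and wild-type ZT15 replicates 1 or 2 in their own comparisons.

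amon, the prohormone convertase itself, differed between LNv groups while Pdf did not pass. Its values were 11.74, 11.79 and 11.36 in cyc0, 9.82, 9.27 and 9.27 in per0, 8.69, 6.42 and 7.82 in wild-type LNvs at ZT15 and 10.65, 10.88 and 10.60 at ZT3. The cyc0 arrays lay above all others and the wild-type ZT15 arrays below the rest of the LNv arrays. The difference between cyc0 and wild type was 3.99 (limma adjusted p = 0.0192), a call that was lost without cyc0 replicates 1 or 3 (limma adjusted p = 0.0856 and 0.0537) or wild-type ZT15 replicates 2 or 3 (0.0989 and 0.0517). The difference between ZT15 and ZT3, -3.07, did not pass (limma adjusted p = 0.183). In elav neurons amon had 9.04, 4.08 and 7.88. IA-2, a dense-core vesicle protein named after its values were seen, was higher than in elav neurons by 2.07 in cyc0 and 2.02 in per0, and both calls were lost after centring on the tested probe sets and without replicates 1 or 2 of the mutant or of elav (limma adjusted p up to 0.109).

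Of 5 neprilysins, peptidases that cleave neuropeptides outside cells, 3 were tested. Nep3 was higher than in elav neurons by 2.48 in per0 and 2.91 in wild-type LNvs at ZT15 (limma adjusted p = 0.026 and 0.00878). The per0 arrays overlapped elav arrays, and that call was lost without per0 replicates 1 or 3 or elav replicates 1 or 2 (limma adjusted p between 0.0821 and 0.135). Nep1 and Nep2 did not pass in any comparison.

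**Figure D4:**
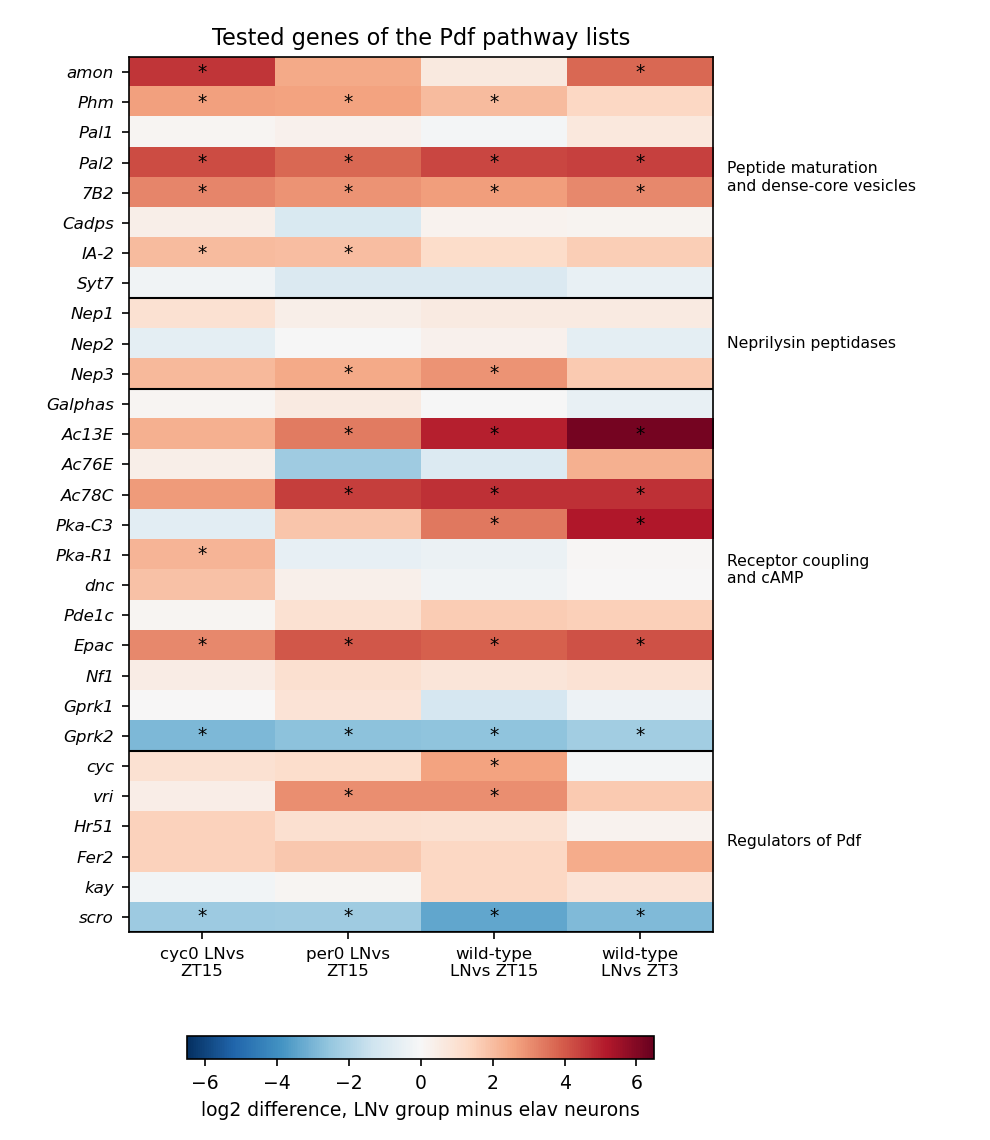
Log2 differences of each LNv group from elav neurons for the tested genes of 4 lists, as colour, with an asterisk where the limma adjusted p was under 0.05. Pal2, 7B2 and Epac carry an asterisk in all 4 LNv columns on the higher side, and Gprk2 and scro in all 4 on the lower side.

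The receptor coupling and cyclic AMP list held 23 genes, of which 16 had a probe set of their own and 12 were tested. Against elav neurons 2 were higher and 1 lower in cyc0, 3 and 1 in per0, 4 and 1 in wild type at ZT15, and 4 and 1 in wild type at ZT3. Over the alternatives the number higher ran between 1 and 4 in cyc0 and 1 and 4 in per0 and stayed at 4 in wild type at both times. The cyc0 count of 2 holds Pka-R1 (2.19, limma adjusted p = 0.0477), a call that was lost under 16 of 24 alternatives. The count was 1 without any 1 of 8 arrays, which were cyc0 replicates 1 and 2, per0 replicates 1 and 3, wild-type ZT15 replicates 2 and 3, wild-type ZT3 replicate 3 and elav replicate 1. Of all probe sets tested, 3.41% were called higher in cyc0, 6.91% in per0, 7.26% in wild type at ZT15 and 7.07% at ZT3. The share called lower was 2.2%, 3.33%, 5.25% and 4.13% in these comparisons. The median differences of the list were 0.44, 0.93, 0.37 and 1.26, against 0.28, 0.32, 0.11 and 0.16 over all probe sets tested. The G protein subunit Galphas was at a similar level on the arrays, with 8.05 to 9.30 in cyc0, 7.49 to 10.10 in wild-type LNvs at ZT15 and 8.07 to 9.17 in elav neurons, and did not pass.

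Epac, an exchange factor that binds cyclic AMP, was higher than in elav neurons by 3.12 in cyc0, 4.03 in per0, 3.86 in wild type at ZT15 and 4.15 in wild type at ZT3. Its values were 7.69 to 8.29 in cyc0, 8.29 to 9.21 in per0, 8.42 to 9.22 in wild-type LNvs at ZT15 and 8.25 to 9.64 at ZT3, against 4.19 to 5.43 in elav neurons. All 4 calls held under each alternative. Another Epac probe set lay near the lower end of the scale and was not tested.

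2 adenylyl cyclases, the enzymes that make cyclic AMP, were higher in 3 of the LNv groups. Ac13E had 9.72, 8.18 and 9.87 in per0, 11.20, 10.36 and 11.23 in wild-type LNvs at ZT15, 12.09, 12.23 and 12.03 at ZT3, and 5.61, 5.45 and 6.56 in elav neurons. Its differences from elav neurons were 3.39, 5.06 and 6.24 (limma adjusted p = 0.00816, 0.00055 and 8.18e-05). The per0 call was lost without per0 replicate 1 (3.16, limma adjusted p = 0.0501). In cyc0 it had 8.51, 9.91 and 6.10 and did not pass (2.3, limma adjusted p = 0.0878), and cyc0 against wild type did not pass either (-2.76, limma adjusted p = 0.0566). Ac78C was higher by 4.48, 4.75 and 4.75 in the same 3 groups. In elav neurons Ac78C had 2.94, 7.79 and 4.76, and without 1 array these differences ran between 3.37 and 6.07. Its difference in cyc0 was 2.77 (limma adjusted p = 0.101).

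Pka-C3, a catalytic subunit related to those of protein kinase A, differed between cyc0 and wild type. It had 3.44, 2.64 and 2.57 in cyc0, 5.69, 4.52 and 5.92 in per0, and 7.09, 6.87 and 7.07 in wild-type LNvs at ZT15. Wild-type LNvs at ZT3 had 8.08, 9.41 and 8.85, and elav neurons 2.77, 5.11 and 2.88. The difference of cyc0 from wild type at ZT15 was -4.13 (limma adjusted p = 0.00156). With values below 4 set to 4 it was at least 8.05-fold lower in cyc0. The per0 values lay between those of cyc0 and of wild type at ZT15, and per0 against wild type did not pass. Against elav neurons Pka-C3 was higher by 3.42 in wild type at ZT15 and 5.19 at ZT3, and both calls held under each alternative. Pka-R1, a regulatory subunit of protein kinase A named after its values were seen, was higher in cyc0 than in wild type by 2.58 and than in per0 by 2.74 (limma adjusted p = 0.0311 and 0.0499). The second of these was lost under 18 of 25 alternatives, and the first without any of the 3 cyc0 arrays or wild-type ZT15 replicates 1 or 2 (limma adjusted p between 0.0662 and 0.101). Gprk2, a kinase that turns off receptors, also named after its values were seen, was lower than in elav neurons by 2.94 in cyc0, 2.68 in per0, 2.63 in wild type at ZT15 and 2.24 in wild type at ZT3. Each of these 4 calls was lost without elav replicate 1 (limma adjusted p = 0.0631, 0.0698, 0.0638 and 0.128), and others without arrays of the LNv group. Between ZT15 and ZT3, and between per0 and wild type, 0 genes of the list passed the limma test, where 0.789% and 1.18% of all probe sets did. In these comparisons 2 and 3 genes of the list had an unadjusted p under 0.05. The share of all probe sets under that p was not counted.

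Of 8 genes known as regulators of Pdf, 7 had a probe set of their own and 6 were tested. vri, a clock repressor, had 8.34, 8.48 and 9.66 in cyc0, 11.53, 11.42 and 11.22 in per0, and 11.69, 11.17 and 11.32 in wild-type LNvs at ZT15. It was lower in cyc0 than in wild type by 2.57 on the log2 scale (log2 difference -2.57, limma adjusted p = 0.0139) and lower than in per0 (-2.57, limma adjusted p = 0.0307), and both calls were lost after quantile normalization and without cyc0 replicate 1 (limma adjusted p = 0.0867 and 0.211). The second was also lost without cyc0 replicate 2 or any of the per0 arrays. The values of Pdf in the same 3 groups overlapped between cyc0 and each of the others. With per0 the overlap was narrow, at 12.933 in cyc0 replicate 1 and 12.928 in per0 replicate 2. A link between vri and Pdf was not tested. scro, a homeobox factor, was lower in LNvs than in elav neurons in all 4 comparisons, which share the same elav arrays. The log2 differences were -2.35 in cyc0, -2.33 in per0, -3.38 in wild type at ZT15 and -2.86 in wild type at ZT3. The cyc0 and per0 calls of scro were lost without elav replicate 2 (limma adjusted p = 0.117 and 0.081) and without replicate 1 of the mutant. cyc, the gene mutated in cyc0, was higher in wild-type LNvs at ZT15 than in elav neurons (6.35 ± 1.42 and 3.74 ± 0.08, n = 3 each; limma adjusted p = 0.0206), and had 4.71 ± 0.80 in cyc0. That call was lost without wild-type ZT15 replicates 2 or 3 or elav replicates 1 or 2 (limma adjusted p between 0.0535 and 0.105).

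Of 4 other receptors of the secretin family 2 were tested. Dh31-R, the receptor of the peptide Dh31, had 2.58 to 3.75 in cyc0, 2.84 to 3.83 in per0, 3.75 to 5.45 in wild-type LNvs at ZT15, 3.74 to 4.2 at ZT3 and 4.14 to 5.33 in elav neurons. Dh44-R1 reached 4 on 2 of 3 wild-type ZT15 arrays and on 1 of 3 ZT3 arrays. Neither passed the limma test in any comparison, and Dh31-R had an unadjusted p under 0.05 in 2 of the 8.

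Of the 8 other neuropeptides of clock neurons 3 were tested, and 2 of them differed within LNvs where Pdf did not pass. Of all probe sets tested, 0.789% passed between ZT15 and ZT3, 2.9% between cyc0 and wild type and 0.789% between cyc0 and per0. Dh31 had 7.62, 8.86 and 7.06 in cyc0, 2.43, 2.57 and 4.13 in per0, 2.31, 2.45 and 2.55 in wild-type LNvs at ZT15 and 6.66, 7.26 and 6.63 at ZT3. It was lower at ZT15 than at ZT3 (-4.41, limma adjusted p = 0.00291) and higher in cyc0 than in wild type (5.41, limma adjusted p = 0.000257). Against per0, which carried the same reporter, Dh31 was higher in cyc0 by 4.80, a call that held under each alternative. sNPF ran the other way, with 3.80, 3.73 and 3.20 in cyc0, 7.53, 8.45 and 7.25 in per0, 8.06, 6.01 and 7.02 in wild-type LNvs at ZT15 and 3.73, 2.46 and 2.76 at ZT3. It was higher at ZT15 than at ZT3 (4.05, limma adjusted p = 0.0231) and lower in cyc0 than in wild type (-3.45, limma adjusted p = 0.0251). The first sNPF call was lost without wild-type replicates 1 or 3 at ZT15 or 2 or 3 at ZT3 (limma adjusted p between 0.0744 and 0.12). The second was lost without replicates 1 or 3 of cyc0 or of wild type at ZT15 (between 0.0712 and 0.0856). Against per0, sNPF was also lower in cyc0 (-4.17, limma adjusted p = 0.0176). That call was lost without cyc0 replicates 1 or 3 or any of the per0 arrays (limma adjusted p between 0.0505 and 0.0989). ITP did not pass in any comparison.

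The genes most like Pdf over the 15 arrays, by Pearson r of log2 values, were CG4577 (0.98), CG14186 (0.98), Pfk (0.98), nolo (0.96) and Tpi (0.96). Each was higher on every LNv array than on every elav array, and r over these arrays mainly restates that split. Pfk and Tpi encode enzymes of glycolysis. Over the 12 LNv arrays alone the most like were Grip84 (0.94), SCAR (0.91), ssx (0.89), Slip1 (0.89) and Doa (0.88). Their group means were highest in per0 among the LNv groups, as for Pdf, which largely follows from their choice by r over these arrays. For Pdfr the most like over 15 arrays were GluClalpha (0.94), ctrip (0.90), ND-B14.5A (0.85), ORMDL (0.84) and cyc (0.84). Over the 12 LNv arrays GluClalpha (0.95), CG14450 (0.92), ctrip (0.91), ATPsyndelta (0.87) and ND-B14.5A (0.87) were most like it. Pdfr reached 4 on 2 arrays, on which its r values rest. All these points share groups of 3 arrays and the normalization across arrays, and the values are descriptions.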

How the data were processed

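The deposited table held log2 values for 18869 probe sets on 15 arrays, which the submitters' processing notes credit to GCRMA. Its version and the set of arrays it ran on were not given in the sources used here. Of 18769 probe sets other than controls, 13646 had 1 gene symbol in the platform annotation, 402 several and 4721 none here; a gene with several probe sets was represented by the one with the highest mean. Probe sets at 4 or above on at least 3 arrays (5829) were fitted in R 4.3.3 by limma 3.58.1 (lmFit, then eBayes), with 1 mean per group over all 15 arrays. P-values were two-sided, adjusted by Benjamini-Hochberg within each of 8 comparisons and an F test over the LNv groups, at a threshold of 0.05. Scripts were tested on simulated data. The number of arrays limits the precision.

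Named were Pdf, Pdfr, tim and elav, up to 4 members of each list by smallest p, and the 5 genes most like each member by Pearson r; others are marked. Members and lists were chosen with earlier results of these data known. Alternatives covered filters, scaling, priors, array weights, a replicate block, fewer arrays and leaving out each array. Centring on the tested probe sets was added after seeing the data.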

Additional observations from a re-analysis of the deposited data

How the results depend on the processing

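No Pdf difference among LNv groups passed under any alternative (smallest limma adjusted p 0.332), and each kept its sign. Without 1 array the Pdf differences ran between 0.47 and 0.57 for per0 against wild type, 0.09 and 0.37 for cyc0 against wild type, -0.43 and -0.15 for cyc0 against per0, and -0.22 and -0.12 for ZT15 against ZT3. Centring each array on its median, which lies at the background level, gave 0.52, 0.19, -0.33 and -0.15. Centring on the tested probe sets, chosen after seeing the data, gave 0.34, 0.004, -0.34 and -0.09. For Pdfr it moved the differences from elav neurons to -0.51 in cyc0, 0.36 in per0 and -0.28 in wild type at ZT3. The cause was not tested.

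The count of probe sets called moved more. Over all alternatives it ran between 166 and 826 for cyc0 against elav neurons, 246 and 1286 for per0, 454 and 945 for wild type at ZT15 and 314 and 860 at ZT3. Among LNvs it ran between 6 and 68 for ZT15 against ZT3, 6 and 456 for per0 against wild type, 35 and 943 for cyc0 against wild type and 20 and 817 for cyc0 against per0. The estimation of array weights stopped before it converged. Of 57 calls of listed genes, 26 held under every alternative that tested them. The calls lost without the filter included Pal2, Ac13E, Ac78C and Nep3 in per0 against elav neurons (limma adjusted p = 0.062, 0.0596, 0.0639 and 0.103). Every sNPF call was lost there too (limma adjusted p between 0.0798 and 0.206).

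With the replicate number as a block the Pdf difference for per0 against wild type stayed at 0.52 (limma adjusted p = 0.643), and no Pdf or Pdfr call changed. Same-numbered arrays of different groups had deviations with r of -0.19 to 0.20 (median 0.02, 30 pairs). Arrays of different numbers had r of -0.28 to 0.25 (median -0.01, 60 pairs). The labels state no shared batch for a number, and these values cannot settle whether there was one. Pdfr, below 4 on 13 arrays, had no usable order on arrays at the lower end of the scale.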
